A study of Mus musculus with 18 samples.

Results

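The interferon regulatory factor (IRF) genes Irf1, Irf2, Irf3, Irf4, Irf5, Irf7, Irf8 and Irf9 were described in bone marrow-derived macrophages (BMMs). They were found by gene symbol in the deposited tables and matched by Ensembl identifier to the libraries, and all 8 of the 38887 genes listed per library had values. BMMs of female C57BL/6J mice, grown with M-CSF, were left untreated or received 100 ng/ml LPS (lipopolysaccharide, from the outer membrane of Gram-negative bacteria) for 4 h, with 3 libraries for each of 6 groups. Animals designated WT were Lyz2-Cre mice, which express the recombinase from the endogenous Lyz2 locus of myeloid cells. In GILZ KO mice the same Cre removed the floxed exon of Tsc22d3, the gene of glucocorticoid-induced leucine zipper (GILZ), from cells with an active Lyz2 locus. GILZ TG mice carried a Gilz-1 cDNA in the ROSA26 locus behind a floxed stop cassette that Cre opens in those cells. The labels do not tell whether libraries with the same replicate number shared an animal, a culture or a day.

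IRFs are transcription factors that share a DNA-binding domain recognising GAAA-type sequences. LPS binds Toll-like receptor 4, which activates IRF3 through the adaptor TRIF and drives transcription of interferon beta. Secreted interferon then acts on its receptor, and IRF9 joins STAT proteins in a complex that induces many genes, among them Irf7. IRF1, IRF5 and IRF8 also take part in cytokine transcription in macrophages, while IRF8 directs monocyte development and IRF4 serves mainly lymphocytes and alternatively activated macrophages.

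Promoter sequence is shown for the 4 members in which one of 3 motifs lay before the start site, because these letters are the kinds of sites through which IRFs, STATs and NF-kappaB bind DNA. Windows from 250 bases before to 50 bases after the RefSeq start sites (GRCm38.p6) were searched on both strands, and all 8 members matched, with 11 windows. The motifs were GAAANNGAAA for the interferon-stimulated response element, TTCNNNGAA for a STAT site and GGGANNNNCC for a kappaB site. They occurred in 3.44%, 8.30% and 20.7% of all 32851 windows and in 1, 3 and 3 of the 11 windows of the members, respectively. These windows belonged to 1, 3 and 3 of the 8 members. In the lines that follow, capitals mark a motif, and no motif overlapped another one.
Irf1: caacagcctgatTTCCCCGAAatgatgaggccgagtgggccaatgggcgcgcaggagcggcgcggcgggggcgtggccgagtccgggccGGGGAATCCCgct
Irf2: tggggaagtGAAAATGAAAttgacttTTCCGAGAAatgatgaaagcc
Irf4: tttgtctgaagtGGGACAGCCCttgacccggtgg
Irf8: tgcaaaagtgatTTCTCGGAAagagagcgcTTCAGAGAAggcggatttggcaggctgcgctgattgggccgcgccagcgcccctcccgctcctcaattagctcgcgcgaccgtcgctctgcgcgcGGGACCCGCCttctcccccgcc
All are on the plus strand, at chr11:53769912-53770013 for Irf1, chr8:46739495-46739541 for Irf2, chr13:30749039-30749072 for Irf4 and chr8:120736175-120736321 for Irf8. The STAT motif of Irf1 began 90 bases before the start site and its kappaB motif 13 bases before it. Irf8 held STAT motifs at 171 and 153 bases before the start. The Irf3, Irf5, Irf7 and Irf9 windows held none of the 3 motifs in these spellings.

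Tsc22d3 was at 14.9 to 18.8 TPM (an abundance scaled by transcript length and by the library's total) in untreated WT libraries, at 1.89 to 2.81 TPM in GILZ KO and at 152 to 160 TPM in GILZ TG libraries, so the genotypes were separate in every library. After LPS it was at 4.56 to 5.81, 2.50 to 3.28 and 127 to 141 TPM. Lyz2, the locus that carries Cre, was at 6766 to 15401 TPM in the 6 WT libraries but at 17.2 to 70.2 TPM in the other 12, although all 3 genotypes are described with Lyz2-Cre. The sources used here do not give the number of Cre alleles, and Lyz2 level and Gilz genotype cannot be told apart in comparisons with WT. Libraries held between 14583055 and 38557029 estimated reads on genes. All 6 macrophage markers examined were above 1 TPM in every group, with sums of 2928 to 3582 TPM, while markers of dendritic cells and T cells summed to at most 1.44 and 0.92 TPM. GILZ TG libraries 1 and 2 of either treatment stood apart by markers of other cells. Their B and plasma cell markers summed to 82.3 to 158 TPM, against 16.9 to 36.1 TPM in the other 14 libraries, and their neutrophil lineage markers summed to 187 to 516 TPM, against 20.7 to 83.5 TPM. Stromal markers reached 80.2 to 115 TPM there and at most 21.8 TPM elsewhere.

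The make-up of the IRF transcript pool changed with LPS in all genotypes. In WT BMMs the 8 members summed to 510 ± 28.0 TPM (SD, n = 3) without treatment and to 2218 ± 127 TPM after LPS. The sums were 521 ± 11.8 and 2108 ± 148 TPM in GILZ KO and 546 ± 26.0 and 2445 ± 34.7 TPM in GILZ TG. In untreated WT libraries Irf5 made up 41.6% ± 1.05 of the sum and Irf7 4.23% ± 0.551. After LPS, Irf7 made up 48.7% ± 2.13 and Irf5 16.9% ± 1.01, and the share of Irf3 went from 12.9% ± 0.814 to 1.32% ± 0.0900. The order of levels in untreated WT and GILZ KO BMMs was Irf5, Irf8, Irf3, Irf2, Irf9, Irf1, Irf7 and Irf4, with no overlap between neighbours. In untreated GILZ TG libraries the order was the same, but Irf9 overlapped with Irf1 and Irf1 with Irf7. After LPS the order became Irf7, Irf1, Irf5, Irf2, Irf9, Irf8, Irf3 and Irf4 in WT and GILZ KO, where Irf9 and Irf8 overlapped and, in WT only, Irf1 and Irf5. Irf8 preceded Irf9 without overlap in GILZ TG. In bulk RNA such levels cannot tell fewer cells of a type from less RNA per cell.

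**Figure D1:**
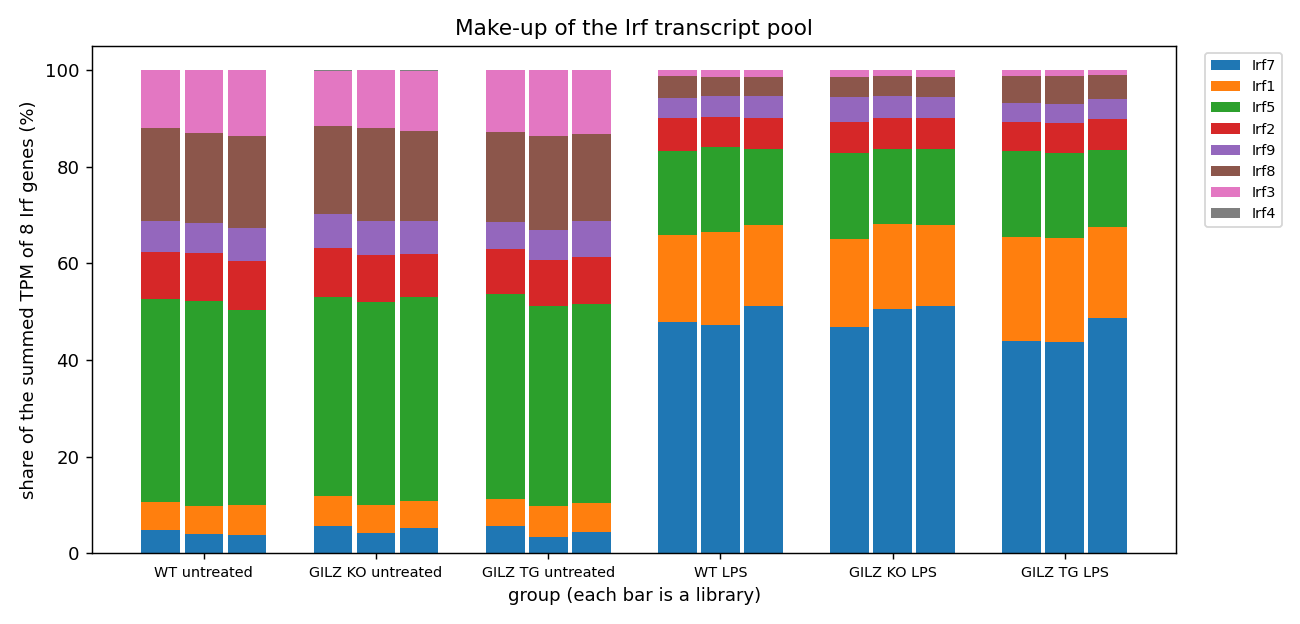
Share of each Irf gene in the summed TPM of 8 Irf genes (y axis, %), with 1 bar for each of 18 libraries ordered by group. Irf5 holds about 41.6% of the pool in untreated WT libraries, and Irf7 about 48.7% after LPS in WT.

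The response to LPS was tested with edgeR's quasi-likelihood test on expected counts in 1 fit of all 18 libraries, with Benjamini-Hochberg adjustment over 13169 genes. In WT, 7 members rose and 1 fell, where 33.5% of all genes tested were called higher and 35.1% lower. The same 7 rose and Irf3 fell in GILZ KO (33.2% and 35.4% of all genes) and in GILZ TG (33.6% and 35.1%), with the exception, given with Irf8, that its direction in WT and GILZ KO turned on TPM and with library totals. A rise of at least 2-fold with an adjusted p under 0.05 was found for Irf1, Irf2, Irf4, Irf5, Irf7 and Irf9, thus for 6 members, in each genotype. Of all genes, 15.4% in WT, 14.6% in GILZ KO and 15.0% in GILZ TG met this rule. The median log2 fold change of the 8 members was 2.17 in WT, 2.06 in GILZ KO and 2.14 in GILZ TG, and that of all genes tested was -0.02 in each. These values are relative to TMM scaling, which centres a trimmed mean of log ratios over the genes near no change. On log2(TPM + 1) the median of all genes shifted to -0.51 in WT, with 2114 genes higher and 8556 lower by limma in place of 4415 and 4622, a scale on which each member's log2 value was lower.

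**Figure D2:**
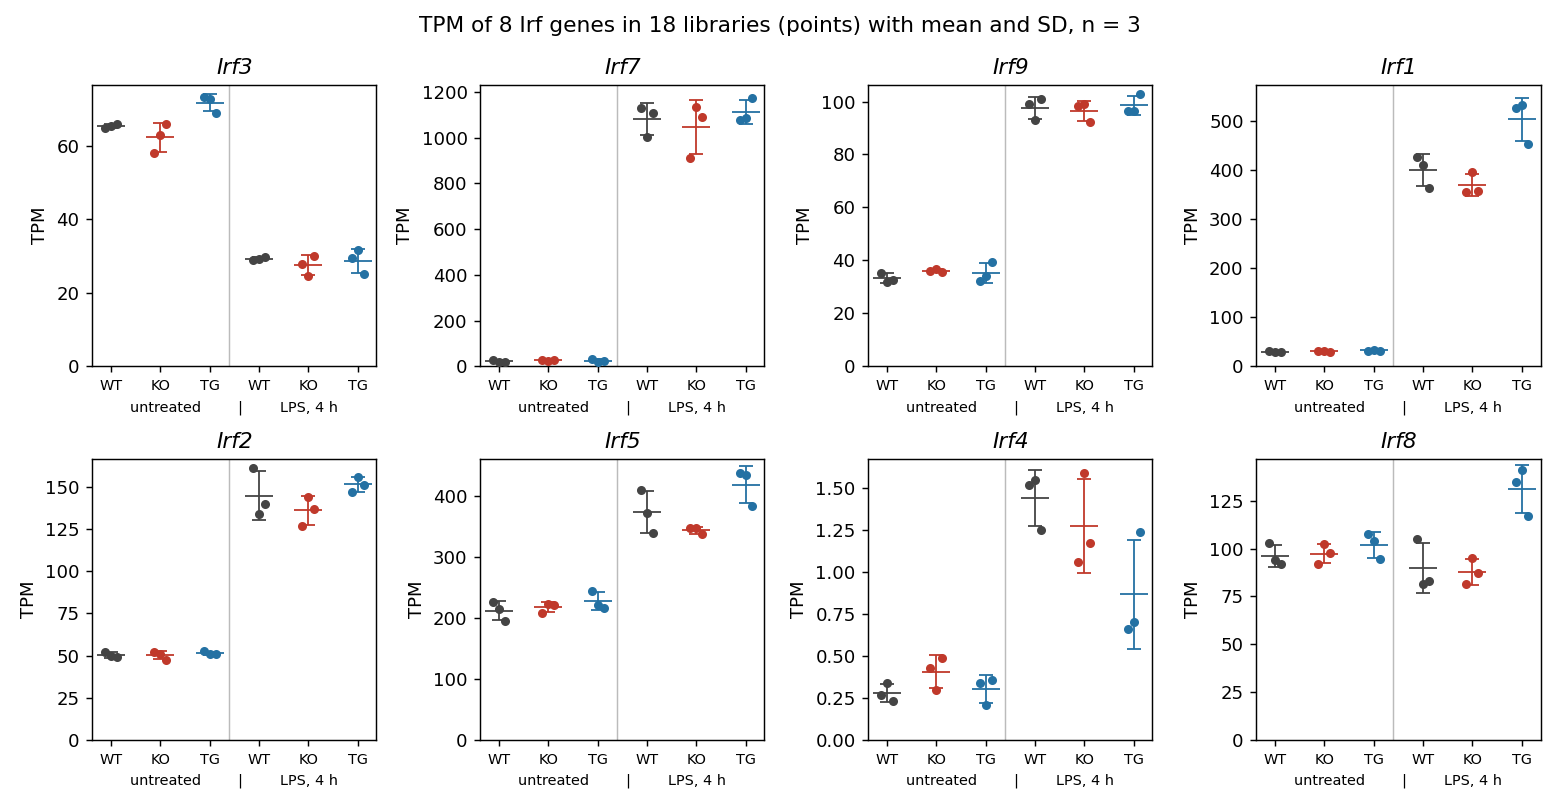
TPM (y axis, linear from 0, own scale per gene) of 8 Irf genes in WT, GILZ KO and GILZ TG libraries without treatment (left of the line) and after 4 h LPS (right); points are libraries, horizontal marks the mean and bars the SD, n = 3. Untreated and LPS libraries are separate for all genes but Irf8, where only the GILZ TG libraries after LPS, at 117 to 141 TPM, lie above all untreated ones.

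IRF3, which is present before stimulation and is activated by phosphorylation, was the member whose mRNA fell. Irf3 (chr7:44997648-45002848, plus strand) was at 64.8, 65.3 and 66.0 TPM in untreated WT libraries and at 28.8, 29.2 and 29.8 TPM after LPS. The groups did not overlap, and WT libraries of a treatment lay close together. In GILZ KO it was at 58.0, 62.9 and 65.9 TPM before and 27.9, 24.6 and 29.9 TPM after LPS, and in GILZ TG at 73.3, 72.8 and 69.0 TPM before and 29.5, 31.5 and 25.1 TPM after. Its log2 fold change was -0.45 ± 0.06 (SE) in WT, -0.38 ± 0.06 in GILZ KO and -0.54 ± 0.06 in GILZ TG (edgeR, adjusted p = 3.6e-06, 2.95e-05 and 3.84e-07). On log2(TPM + 1) the fall was deeper, at -1.13, -1.15 and -1.30. Irf3 shares 1065 bases with Bcl2l12 on the opposite strand, and whether reads were counted by strand is not given in the sources used here.

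Irf7, the interferon-inducible member that amplifies interferon alpha transcription, had the largest response of the 8. It lies at chr7:141262706-141266481 on the minus strand. Untreated WT libraries had 26.2, 19.9 and 18.8 TPM and LPS-treated ones 1130.4, 1002 and 1108 TPM. GILZ KO went from 28.7, 21.9 and 27.4 TPM to 911, 1134 and 1090.1 TPM, and GILZ TG from 32.8, 18.7 and 23.1 TPM to 1077, 1084 and 1172 TPM. All LPS libraries were far above all untreated ones, and the untreated libraries of the 3 genotypes overlapped. The log2 fold changes were 6.21 ± 0.20, 5.93 ± 0.19 and 6.05 ± 0.19 (edgeR, adjusted p = 2.06e-14, 3.65e-14 and 2.6e-14), which placed Irf7 at rank 166, 189 and 167 of 13169 genes ordered from the highest value.

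Irf9, Irf1 and Irf2 act with or against interferon signalling. IRF9 is the DNA-binding part of a complex with STAT2, IRF1 activates interferon-inducible genes, and IRF2 binds the same sites, often as a repressor. Irf9 (chr14:55603571-55610030, plus strand) was at 35.4, 31.9 and 32.6 TPM in untreated WT and at 99.1, 93.0 and 101 TPM after LPS. The GILZ KO values were 35.9, 36.9 and 35.7 TPM before and 98.3, 99.2 and 92.1 TPM after LPS, and those of GILZ TG 32.2, 34.0 and 39.5 TPM before and 96.6, 96.5 and 103 TPM after. Libraries of all genotypes lay close together within a treatment and far apart between treatments. The log2 fold change was 2.19 ± 0.07, 2.05 ± 0.07 and 2.13 ± 0.07 in WT, GILZ KO and GILZ TG (edgeR, adjusted p = 4.62e-14, 1.36e-13 and 6.57e-14). Irf9 overlaps with Rnf31 by 123 bases on the same strand, its expected counts were not whole, and Rnf31 itself was at 19.2 to 24.5 TPM in untreated WT and at 116 to 139 TPM after LPS. The part of shared reads in the Irf9 values was not tested.

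Irf1 (chr11:53770014-53778374, plus strand), whose promoter letters are shown above, was at 30.9, 29.5 and 29.2 TPM in untreated WT libraries and at 426, 411 and 364 TPM after LPS. GILZ KO went from 31.8, 31.4 and 29.3 TPM to 355, 396 and 357 TPM. GILZ TG went from 31.5, 34.1 and 31.9 TPM to 527, 532 and 454 TPM, and all GILZ TG libraries after LPS were above all others. The log2 fold changes of 4.40 ± 0.08, 4.25 ± 0.08 and 4.60 ± 0.09 (edgeR, adjusted p = 6.09e-17, 1.29e-16 and 5.54e-17) ranked at 358, 361 and 313 of 13169 genes.

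Irf2 (chr8:46739732-46847458, plus strand) was at 52.3, 50.1 and 49.2 TPM in untreated WT and at 161, 134 and 139.8 TPM after LPS. Its untreated libraries ranged from 47.6 to 52.2 TPM in GILZ KO and from 50.7 to 52.6 TPM in GILZ TG, and after LPS from 127 to 144 and from 147 to 156 TPM. All LPS libraries were above all untreated ones, and the 3 genotypes overlapped before treatment. Log2 fold changes were 2.15 ± 0.07, 2.07 ± 0.07 and 2.19 ± 0.07 (edgeR, adjusted p = 6.66e-14, 1.37e-13 and 5.4e-14), close to those of Irf9.

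IRF5, which drives inflammatory cytokine genes downstream of MyD88, had the highest untreated level. Irf5 (chr6:29526625-29541871, plus strand) was at 227, 215 and 196 TPM in untreated WT libraries and at 410.45, 372 and 340.3 TPM after LPS. In GILZ KO it went from 208, 223 and 222 TPM to 347, 348 and 338 TPM, and in GILZ TG from 245, 221 and 217 TPM to 438, 435 and 385 TPM. All LPS libraries were above all untreated ones. The log2 fold change was 1.45 ± 0.07, 1.30 ± 0.07 and 1.50 ± 0.07 (edgeR, adjusted p = 1.01e-11, 4.8e-11 and 6.2e-12), whereas the ratio of mean TPM was 1.76, 1.58 and 1.84 and thus under 2-fold. Irf5 shares 1045 bases with Tnpo3 on the opposite strand.

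Irf4 and Irf8 are the hematopoietic members that bind DNA together with the ETS factor PU.1. Irf4 (chr13:30749226-30766976, plus strand) was near the lower end of what these libraries measure, with expected counts of 16 to 29 in untreated libraries and 48 to 99 after LPS. In WT it was at 0.27, 0.34 and 0.23 TPM before and 1.52, 1.55 and 1.25 TPM after LPS. GILZ KO had 0.43, 0.30 and 0.49 TPM before and 1.06, 1.59 and 1.17 TPM after. GILZ TG had 0.34, 0.21 and 0.36 TPM before and 0.66, 0.70 and 1.24 TPM after LPS, so library 3, without the high B and plasma cell markers, was the highest of that group. The log2 fold changes were 2.98 ± 0.30, 2.28 ± 0.30 and 2.15 ± 0.30 (edgeR, adjusted p = 9.4e-08, 2.7e-06 and 6.32e-06), with the largest errors among the members.

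Irf8 (chr8:120736358-120756694, plus strand) was at 103, 94.2 and 92.0 TPM in untreated WT libraries and at 105, 81.3 and 83.1 TPM after LPS. In GILZ KO it was at 92.2, 102 and 97.6 TPM before and at 81.5, 95.1 and 87.0 TPM after LPS. Both genotypes overlapped between treatments on this scale. In GILZ TG, 108, 104 and 94.5 TPM before were followed by 135, 141 and 117 TPM after LPS, without overlap. With TMM the log2 fold change was 0.50 ± 0.10 in WT, 0.48 ± 0.10 in GILZ KO and 0.99 ± 0.10 in GILZ TG (edgeR, adjusted p = 0.000217, 0.000335 and 9e-08). On log2(TPM + 1) the sign turned to -0.11 in WT and -0.15 in GILZ KO (limma, adjusted p = 0.306 and 0.166), while GILZ TG stayed at 0.36 (limma, adjusted p = 0.00286). Relative to all genes, whose median was -0.51 in WT on that scale, Irf8 was higher in each case. Irf8 lies inside the span of the predicted gene Gm20388 on the same strand, but its expected counts were whole in all 18 libraries.

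**Figure D3:**
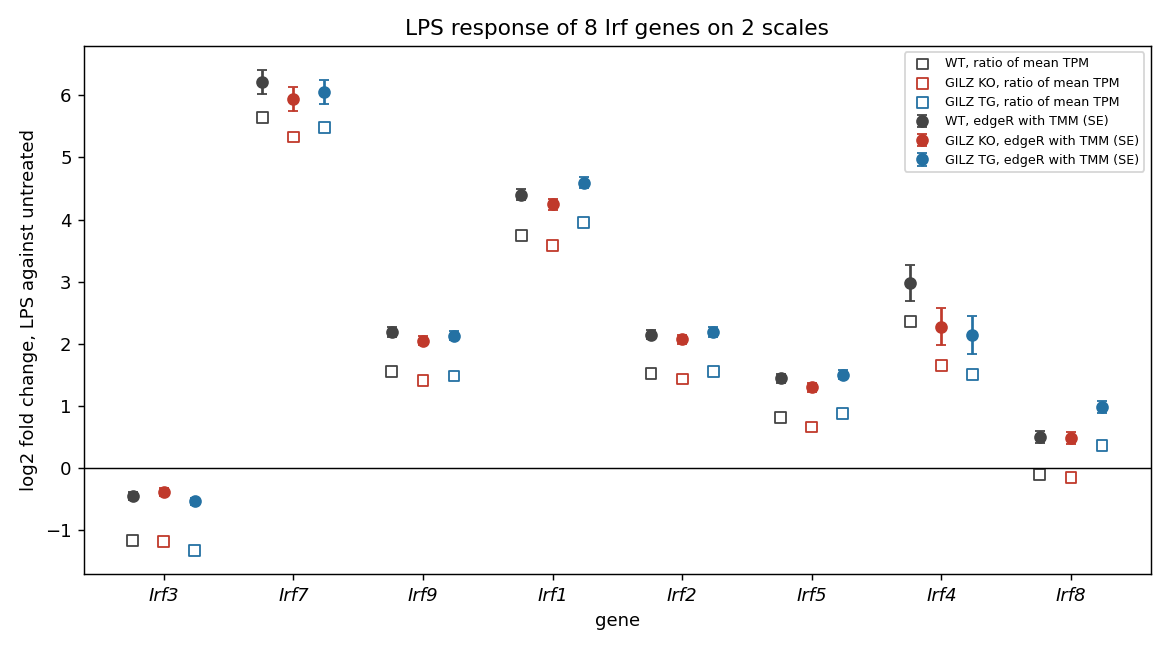
Log2 fold change with LPS (y axis) of 8 Irf genes in 3 genotypes, by edgeR with TMM (filled circles, bars are SE) and as the ratio of mean TPM (open squares). Every square lies below its circle, and for Irf8 in WT and GILZ KO it lies below 0, so the direction of Irf8 flips there with the scale.

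Whether genotype changed the LPS response was tested as an interaction over 13169 genes. None of the 8 members was called by edgeR in GILZ KO against WT (0.0152% of all genes called), GILZ TG against WT (0.00759%) or GILZ KO against GILZ TG (0.121%). DESeq2 and limma also called 0 members in each. At an unadjusted p under 0.05 by edgeR there were 0, 1 and 2 members, respectively, next to 838, 407 and 1306 of the 13169 genes. The response of Irf8 was 0.49 ± 0.14 higher on the log2 scale in GILZ TG than in WT (edgeR, adjusted p = 1.00) and differed by -0.51 ± 0.14 between GILZ KO and GILZ TG (adjusted p = 0.164). With each replicate number within a genotype as a block, which pairs its untreated and LPS library, the latter difference was called. It was at -0.51 (edgeR, adjusted p = 0.0239), so that 1 member was called there, next to 144 of the 13169 genes. That of Irf1 differed between GILZ KO and GILZ TG by -0.35 ± 0.11 (edgeR, adjusted p = 0.213). Between GILZ KO and WT, differences of the response were from -0.70 ± 0.41 for Irf4 to 0.06 ± 0.09 for Irf3.

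In untreated BMMs, genotypes were compared in the 9 untreated libraries with 12621 genes tested. None of the members was called by edgeR in GILZ KO against WT (0.0951% of all genes called), in GILZ TG against WT (0.642%) or in GILZ KO against GILZ TG (4.94%). At an unadjusted p under 0.05 there were 0, 1 and 1 members, limma called 0 in each, and DESeq2 called 0, 0 and 1. Of all 12621 genes, 1211, 1780 and 3106 had an unadjusted p under 0.05 by edgeR. DESeq2 called 79, 312 and 1218 of all genes and limma 8, 41 and 268. The member called by DESeq2 was Irf3, which had 58.0 to 65.9 TPM in GILZ KO and 69.0 to 73.3 TPM in GILZ TG without overlap. Its log2 difference was -0.23 ± 0.06 (edgeR, adjusted p = 0.0509, DESeq2, adjusted p = 0.0192, both over all genes tested, and 0.0192 to 0.224 over the alternatives). The other members differed between these genotypes by -0.12 ± 0.05 for Irf1 to 0.40 ± 0.31 for Irf4. Irf7 in untreated GILZ KO was 0.22 ± 0.19 higher than in WT (edgeR, adjusted p = 0.747), within the spread of its libraries.

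After LPS, 12164 genes were tested in the 9 LPS libraries. In GILZ KO against WT, 0 members were called by edgeR (0.0822% of all genes called), DESeq2 and limma. By edgeR, 0 members had an unadjusted p under 0.05, next to 1171 of the 12164 genes. Log2 differences ranged from -0.20 ± 0.26 for Irf4 to 0.02 ± 0.11 for Irf8, and all 8 members overlapped between these groups in TPM.

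For GILZ TG against WT after LPS, edgeR called 0 members (0.460% of all genes called), limma 0 and DESeq2 2 members, Irf1 and Irf8. Of all 12164 genes, limma called 30 and DESeq2 274. At an unadjusted p under 0.05 by edgeR there were 3 members, next to 1852 of all genes. Irf8 was at 117 to 141 TPM in GILZ TG and 81.3 to 105 TPM in WT, a log2 difference of 0.59 ± 0.11 (edgeR, adjusted p = 0.0550, from 0.000241 to 0.496 over the alternatives). Irf1 was at 454 to 532 TPM against 364 to 426 TPM, with a difference of 0.33 ± 0.09 (edgeR, adjusted p = 0.135). Irf4 was lower in all GILZ TG libraries than in all WT libraries, at 0.66 to 1.24 against 1.25 to 1.55 TPM, and its log2 difference was -0.76 ± 0.26 (edgeR, adjusted p = 0.198). Single libraries mattered for each. Irf8 was called without WT library 1 (0.72, edgeR, adjusted p = 0.0118), and Irf8, Irf1 and Irf4 were called without GILZ TG library 3, with log2 differences of 0.64, 0.39 and -1.09 (edgeR, adjusted p = 0.00824, 0.0251 and 0.0120). The latter fit keeps GILZ TG libraries 1 and 2, which had the high markers of other cells. There 1067 of all genes were called, in place of 56.

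In GILZ KO against GILZ TG after LPS, edgeR called 2 of the 8 members, Irf1 and Irf8, where 2.60% of all genes were called. Both were lower in GILZ KO. Irf1 was at 355 to 396 TPM in GILZ KO and 454 to 532 TPM in GILZ TG, a log2 difference of -0.45 ± 0.09 (edgeR, adjusted p = 0.0323). Irf8 was at 81.5 to 95.1 TPM against 117 to 141 TPM, a difference of -0.57 ± 0.11 (edgeR, adjusted p = 0.0285). Irf5 was at 338 to 348 TPM in GILZ KO and 385 to 438 TPM in GILZ TG without overlap, with a difference of -0.30 ± 0.08 (edgeR, adjusted p = 0.0889), and DESeq2 called it (adjusted p = 0.0244). Irf3, Irf7 and Irf9 overlapped between the groups, at differences of -0.06 ± 0.08, -0.07 ± 0.10 and -0.07 ± 0.07, and Irf2 did not overlap but missed the threshold, at -0.16 ± 0.08 (edgeR, adjusted p = 0.330). At an unadjusted p under 0.05 by edgeR there were 3 members, next to 2328 of all 12164 genes. DESeq2 called 3 members and 715 of all genes. Here and in the other genotype comparisons, the share of all genes without overlap is not given, so a lack of overlap carries no weight by itself. Comparisons with GILZ TG share the same 3 GILZ TG libraries.

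Both calls were lost when GILZ KO library 1, 2 or 3 or GILZ TG library 1 or 2 was left out, with differences from -0.51 to -0.40 for Irf1 and from -0.64 to -0.49 for Irf8 (edgeR, adjusted p = 0.0530 to 0.161 and 0.0537 to 0.154). Without GILZ TG library 3, Irf4 and Irf5 were called as well, at 0.89 and -0.34 (edgeR, adjusted p = 0.0267 and 0.0304). In that fit 1403 of all genes were called, in place of 316. Without GILZ TG libraries 1 and 2, an alternative chosen after seeing the data, Irf8 was at -0.46 and Irf1 at -0.33. That fit holds 1 GILZ TG library, which is assumed to vary like the other groups, and its adjusted p-values by edgeR, 0.331 and 0.362, do not tell whether the differences persisted. In the GILZ TG libraries after LPS, B and plasma cell markers summed to 82.3, 150.0 and 26.8 TPM, mostly Igkc and Ighm, where Irf8 was at 135, 141 and 117 TPM. Of the 10 markers, 6 were under 1 TPM in these 3 libraries and 0 were at 0 in all of them. Igkc was at 43.1, 93.2 and 7.28 TPM against at most 2.22 TPM in WT and GILZ KO after LPS, and Jchain, a plasma cell gene, at 2.32, 4.87 and 0.50 TPM against at most 0.29 TPM. Mzb1, also of plasma cells, was at 0.28, 0.33 and 0 TPM against 0, while the B cell genes Ms4a1, Cd79a and Pax5 were at most 0.08 TPM. Cd79b, also a B cell gene, was not raised, at 3.77, 3.52 and 3.99 TPM against 3.09 to 6.63 TPM in WT and GILZ KO. Before LPS, Cd79b was at 7.05, 9.05 and 7.88 TPM, below the 9.23 to 13.39 TPM of WT and GILZ KO. Ebf1 was at 0.19, 0.24 and 0.66 TPM after LPS, against at most 0.25 TPM. In the untreated GILZ TG libraries the marker sums were 94.2, 158 and 36.1 TPM and Irf8 was at 108, 104 and 94.5 TPM, next to 92.0 to 103 TPM in WT. The part of other cells in the Irf1 and Irf8 differences was not tested. Library depth also differed, with 20757976 to 38557029 estimated reads in GILZ TG and 14583055 to 22640548 in GILZ KO after LPS.

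**Figure D4:**
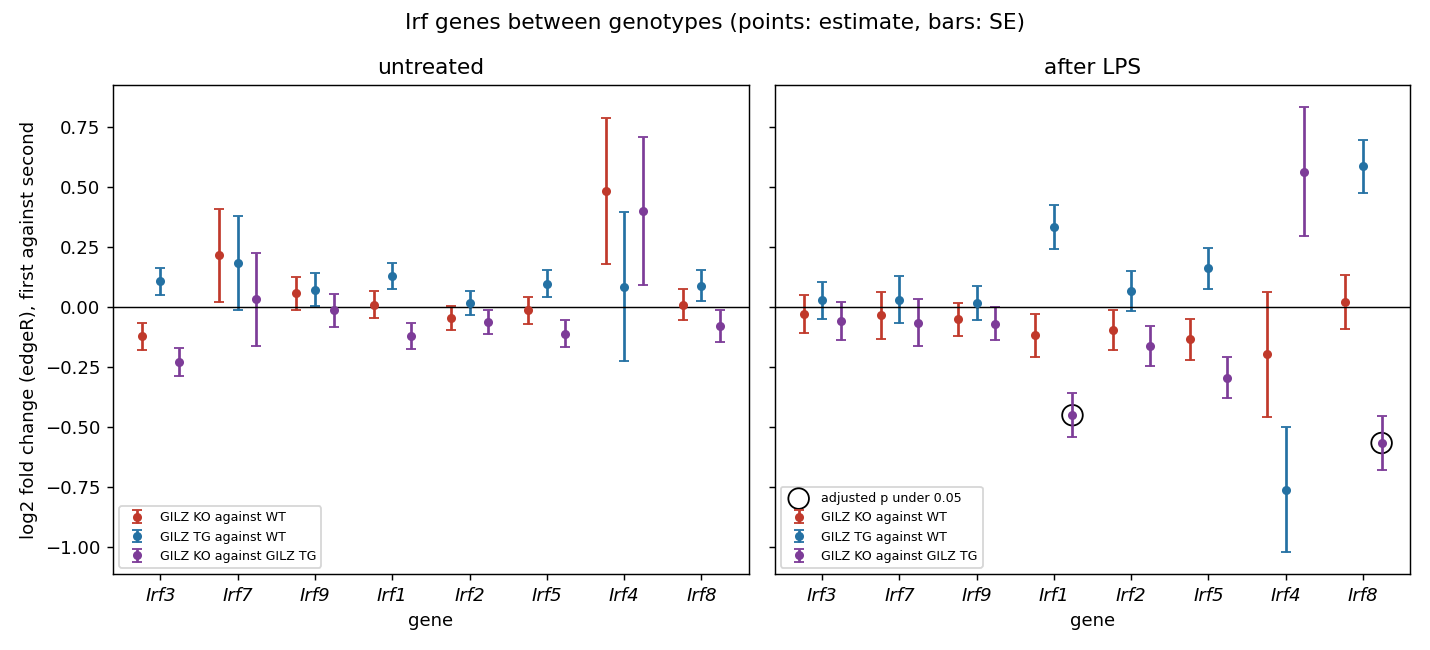
Log2 differences of 8 Irf genes between genotypes (y axis, first against second) in untreated (left) and LPS-treated BMMs (right), by edgeR; points are estimates and bars SE, and circles mark an adjusted p under 0.05. Circles mark Irf1 at -0.45 and Irf8 at -0.57 in GILZ KO against GILZ TG after LPS.

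Genes with the most similar pattern were sought by Pearson's r of log2(TPM + 1) over the 18 libraries, among 9025 protein-coding genes with a mean of at least 5 TPM. The libraries form an untreated and an LPS group, so r mostly describes the step between them, and it is given without a test. Most like Irf7 were Oasl2, Mov10 and Dhx58, antiviral genes, with r = 0.999 for each. Irf9 was most like Ddx58, the RNA sensor RIG-I, followed by Zup1 and Irak2 (r = 0.998, 0.997 and 0.997). Nearest to Irf1 were Gbp4, Ppm1k and Icam1 (r = 0.999 for each), and nearest to Irf2 were Gbp4, Themis2 and Ppm1k (r = 0.998 for each), so that Gbp4, a guanylate-binding protein, and Ppm1k appear for both. Irf5 went with Dusp2, Spsb1 and Plekha2 (r = 0.990, 0.989 and 0.989). The falling Irf3 was most like Abhd11, Rbfa and Pgp (r = 0.995 for each). Irf4 had lower values with Actr3, Capza2 and Ppp4r2 (r = 0.961, 0.960 and 0.958). Irf8 stood apart, with r = 0.792 for Cdyl, 0.781 for Ctsh and 0.776 for Pstpip1. Among the members themselves, Irf1 and Irf2 were the most alike (r = 0.997), and Irf8 had r = 0.314 or less with each other member.

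The other genes of the pathway were taken as lists. For the counts below, 33.5% of all 13169 genes tested were called higher with LPS in WT, and 35.1% lower. In GILZ KO these shares were 33.2% and 35.4%, and in GILZ TG 33.6% and 35.1%. Of 22 sensors, adaptors and kinases upstream of IRFs, 17 rose and 4 fell with LPS in each genotype, with a median log2 fold change of 1.50 in WT, 1.47 in GILZ KO and 1.37 in GILZ TG. Zbp1, a nucleic acid sensor, had the largest value in WT, at 6.47 ± 0.14 (edgeR, adjusted p = 2.33e-16), and Traf3, a ubiquitin ligase of the pathway to IRF3, the smallest, at -1.01 ± 0.08 (adjusted p = 7.23e-09). Named after their values were seen, Mavs, Irak4 and Irak1 were the others that fell, and Sting1 was not called in any genotype, at 0.08 ± 0.10 in WT. Traf6 was called higher with TMM in each genotype and Tlr4 in GILZ KO, although their mean TPM was lower after LPS.

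All 9 interferon receptor, JAK and STAT genes were called, 8 higher and 1 lower, in each genotype, with medians of 1.15, 1.15 and 1.09. Stat2, the partner of IRF9, rose by 4.56 ± 0.10 in WT (edgeR, adjusted p = 2.17e-16), while Ifngr1, a chain of the interferon gamma receptor, was at -0.63 ± 0.07 (adjusted p = 3.45e-07).

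Among IRF partners and regulators, 13 of 15 genes were tested, and 8 rose in each genotype. Those that fell numbered 4 of 13 in WT and 3 of 13 in GILZ KO and GILZ TG, next to 35.1%, 35.4% and 35.1% of all genes tested. The medians were 1.18, 1.29 and 1.16. Usp18, which limits interferon receptor signalling, was at 8.04 ± 0.19 in WT (edgeR, adjusted p = 5.01e-16), and the corepressor Irf2bp2 at -1.61 ± 0.17 (adjusted p = 1.68e-07). The other IRF2-binding proteins Irf2bp1 and Irf2bpl also fell in each genotype, both named after their values were seen. Rbck1 was called higher with TMM in each genotype but had a lower mean TPM after LPS.

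Of 9 interferon genes, 8 were found, and only Ifnb1 was tested. It was at 0 in all untreated libraries and at 11.5, 16.4 and 8.52 TPM in WT after LPS, 10.3, 10.6 and 9.77 TPM in GILZ KO and 18.7, 19.7 and 14.9 TPM in GILZ TG. Against a floor of 3 counts per untreated library it was at least 69.1-fold higher in WT, 46.0-fold in GILZ KO and 87.5-fold in GILZ TG. The other 7 had at most 1 count in any library.

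All 17 interferon-stimulated genes rose in each genotype, with medians of 8.53, 7.51 and 8.86. Ccl5, a chemokine, had the largest value in WT, at 11.05 ± 0.27 (edgeR, adjusted p = 9.49e-16), and Oas1a, an antiviral enzyme, the smallest, at 2.93 ± 0.09 (adjusted p = 6.47e-15). The median log2 difference of this list between GILZ KO and WT was 0.57 without treatment (16 genes tested) and -0.14 after LPS (17 tested). Between GILZ TG and WT it was -0.07 and 0.03. In each of these comparisons 0 genes of the list were called. All 14 cytokine and antigen presentation targets also rose in each genotype. With genes at 0 in all untreated libraries set to their lower bound, the medians were 4.23, 5.00 and 4.61, against 6.15, 5.46 and 5.47 as fitted. The genes so set were Il12a and Il23a in WT but Il12a alone in GILZ KO and GILZ TG. The bounded medians therefore cannot be compared between genotypes. The span in WT was from 1.80 ± 0.07 for Psmb8, an immunoproteasome subunit (edgeR, adjusted p = 6.59e-13), to 11.90 ± 0.44 for Nos2, the inducible nitric oxide synthase (adjusted p = 1.4e-13).

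Between genotypes, the genes of these lists that were called are named here after their values were seen. In GILZ KO against GILZ TG they were 6 of 68 tested without treatment (8.82%, next to 4.94% of all genes) and 6 of 76 after LPS (7.89%, next to 2.60%). Nothing was tested about the lists as a whole, which were chosen with results of these data known. In untreated GILZ KO against GILZ TG, Ifit1, Ifit2, Ifit3, Ifih1 and Cd274 were higher and Irf2bp1 lower. Ifit1, for example, was at 16.9, 9.95 and 9.42 TPM in GILZ KO and 4.31, 5.04 and 6.50 TPM in GILZ TG, a difference of 1.16 ± 0.23 (edgeR, adjusted p = 0.0230). Library 1 of untreated GILZ KO was the highest for Ifit1, and its Irf7 was at 28.7 TPM next to 21.9 and 27.4 TPM. After LPS, GILZ TG exceeded GILZ KO in Mx1, Mx2, Cxcl9, Batf2 and Tlr9, with Il12b in the opposite direction. Il12b, the interleukin 12 subunit p40, was at 41.0, 51.3 and 53.8 TPM in GILZ KO, 30.4, 33.8 and 35.2 TPM in WT and 22.7, 18.2 and 12.5 TPM in GILZ TG, with a log2 difference of 1.43 ± 0.18 between GILZ KO and GILZ TG (edgeR, adjusted p = 0.00585). Cxcl9, a chemokine that IRF1 is known to induce, was at 6.69, 13.1 and 8.59 TPM against 37.8, 37.4 and 17.3 TPM, a difference of -1.73 ± 0.35 (edgeR, adjusted p = 0.0325). In GILZ TG against WT after LPS, Irf2bpl alone was called, at -0.42 ± 0.07 (edgeR, adjusted p = 0.0357). The LPS response of Ifit1 and Mx2 differed between GILZ KO and GILZ TG, by -1.47 ± 0.24 and -1.69 ± 0.29 (edgeR, adjusted p = 0.0237 and 0.0258). These differences include the untreated level, where GILZ KO was the higher genotype. Its mean Ifit1 was 12.1 against 5.28 TPM before LPS, and 2131 against 2589 TPM after. For Mx2 the means were 2.03 against 0.83 TPM before LPS, and 244 against 317 TPM after. Library 1 of untreated GILZ KO was again the highest, with Mx2 at 3.01 TPM next to 1.79 and 1.30 TPM. No gene of the lists was called by edgeR between GILZ KO and WT.

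**Figure D5:**
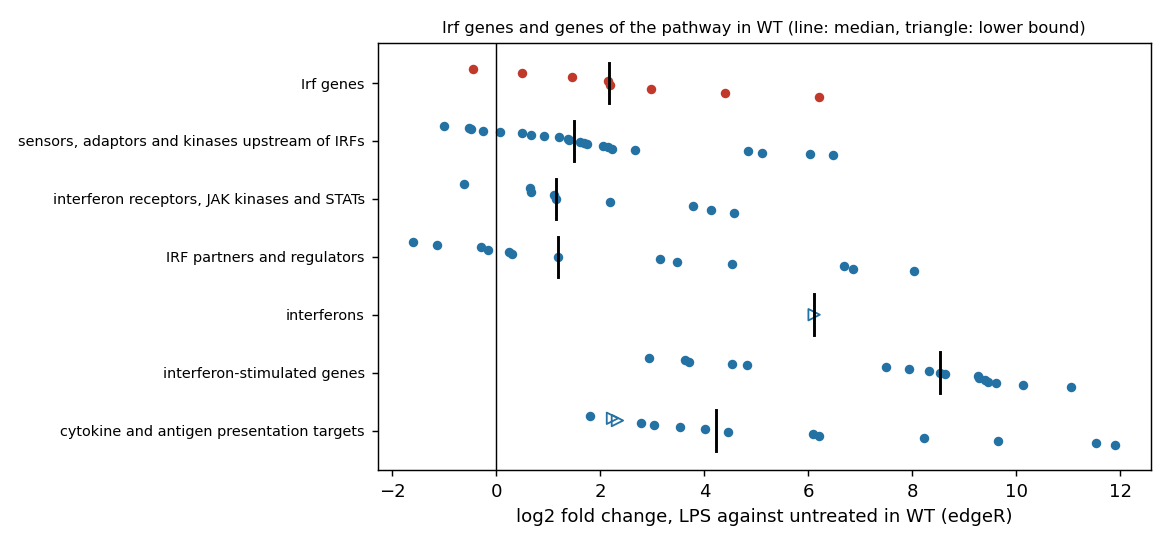
Log2 fold change with LPS in WT by edgeR (x axis) of the 8 Irf genes and of 6 lists of pathway genes; each point is a gene, triangles are lower bounds of genes with 0 counts in all untreated libraries, and vertical lines are medians. The Irf genes lie between -0.45 and 6.21, and all 17 interferon-stimulated genes lie at or above 2.93.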

How the data were processed

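RNA was poly(A)-selected, prepared with a directional kit and sequenced by the authors on a NextSeq500. Per the submitters' processing notes and the study's methods, reads were checked with FastQC 0.11.2, processed with grape-nf and mapped to GRCm38/mm10. The deposited expected counts are estimated reads per gene without normalization, and the deposited TPM values are scaled by effective length and total. The authors' DESeq2 tables hold fold changes and p-values, which were not used, and served for symbols only. Expected counts were rounded, filtered with filterByExpr, normalized by TMM and tested with edgeR 4.0.16 in R 4.3.3 (two-sided, Benjamini-Hochberg, threshold 0.05). LPS responses and interactions used all 18 libraries, genotype comparisons the 9 of a treatment. P-values measure the spread between libraries. The study describes 3 mice per group, with each sample an independent preparation. No 2 libraries of a group agreed within counting noise. Promoters were RefSeq windows and gene positions GENCODE M21, both GRCm38.

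The members and lists were chosen with earlier results of these data known. All members were named, and besides Tsc22d3, Lyz2, the 3 genes most like each member and the genes with the largest and smallest LPS response in WT of each list. Some genes of the lists are not reported here. Alternatives were no filter, limma 3.58.1 with pseudocounts of 1 and 0.1 TPM, DESeq2 1.42.0, its size factors alone, a minimum of 10 counts in every library, a replicate block, single libraries left out, only the 6 libraries compared and all 18 in one fit. The block was the replicate number within a genotype for LPS responses and their differences. For genotype comparisons it was the replicate number across genotypes. Library totals in place of TMM and leaving out GILZ TG libraries 1 and 2 were added after seeing the data. The tests were tested on simulated data. Figures were drawn with matplotlib 3.10.9.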

Additional observations from a re-analysis of the deposited data

How the results depend on the processing

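All members kept their direction and call in the LPS responses under all alternatives, except Irf8. Its value in WT turned to -0.11 with limma on log2(TPM + 1), -0.11 on log2(TPM + 0.1) and -0.18 with library totals in place of TMM, and in GILZ KO to -0.15, -0.15 and -0.16. These scales place the median of all genes at -0.51, -0.62 and -0.70 in WT. In GILZ KO against GILZ TG without treatment, 0 members became 1, Irf3, with DESeq2, DESeq2's size factors, the stricter filter, the replicate block, all 18 libraries in one fit and library totals. For GILZ TG against WT after LPS, 0 became 2 with DESeq2 and with all 18 libraries, 1 without a filter, with the stricter filter and with library totals, and from 0 to 3 when single libraries were left out. In GILZ KO against GILZ TG after LPS, 2 became 3 with DESeq2 and with all 18 libraries, which add Irf5, from 0 to 4 without single libraries, and 0 without GILZ TG libraries 1 and 2. The latter fit has 1 GILZ TG library, Irf8 at -0.46 and Irf1 at -0.33, so that its count of 0 says little. The causes were not tested. Counts over all genes moved by less than 1.5 times for the LPS responses. There 9037 genes in WT ranged from 7867 to 11090, 9024 in GILZ KO from 7879 to 10894 and 9045 in GILZ TG from 7106 to 11041. Between genotypes and for the differences of the LPS response, counts over all genes moved by more than 1.5 times. After LPS, 316 genes called in GILZ KO against GILZ TG ranged from 24 to 1403, 56 in GILZ TG against WT from 15 to 1067 and 10 in GILZ KO against WT from 4 to 100, with the highest values without GILZ TG library 3 in the first and second and with DESeq2 in the last. Without treatment the counts of 623, 81 and 12 ranged from 34 to 1306, 16 to 665 and 5 to 79. For the differences of the LPS response, 16, 1 and 2 genes ranged from 0 to 144, 0 to 8 and 1 to 21 in the same order of comparisons. For the replicate block, the correlation of deviations between untreated and LPS libraries of equal number was above 0.1 in 3 of 3 pairs in GILZ TG (0.266 to 0.605), in 1 of 3 in WT and in 0 of 3 in GILZ KO, and in 2 of 18 pairs of genotypes. The numbers thus went together in GILZ TG but not throughout. With the replicate number within a genotype as a block, 1 member, Irf8, differed in the LPS response between GILZ KO and GILZ TG, at -0.51 (edgeR, adjusted p = 0.0239), where the fit without a block called 0. A block changed no other call of a member than this one and that of Irf3, where it was the number across genotypes. Depth limits Irf4 most, with 16 to 99 counts per library.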
